A study of Danio rerio with 9 samples.

Results

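The comparison set brain neurons whose cut spinal axons were not traced beyond the lesion against traced brain neurons of unlesioned zebrafish. Its members were chosen by the titles of the samples, and they were 6 of the 9 arrays of the series, 3 nonregenerated and 3 unlesioned. The other 3 arrays held neurons that regenerated. All 15502 probe sets other than controls were described, and the named ones stand for 8793 genes.

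In the lesioned fish the spinal cord was fully cut at vertebra 8, and the red dextran tracer Fluororuby applied there filled brain neurons backwards along their axons. At week 3 Fluoroemerald, which is green, was injected 4 mm distal to the cut, and the brains were dissociated and sorted 1 week later. Nonregenerated neurons are those the labels describe as not having regrown their axons, and regenerated neurons are those that did. Unlesioned fish received Fluororuby at vertebra 8 without the transection being stated, and their labelled neurons were collected 1 week after. The nonregenerated cells were thus sorted 4 weeks after the first tracer and the unlesioned cells 1 week after it, so the lesion, the longer interval and the second tracer cannot be told apart. A neuron whose axon grew less than 4 mm, or that did not take up the second tracer, would also lack it. In the labels and the design text, the sort gates, the strain, age and sex of the fish, the number of fish per sample, and whether both lesioned groups came from the same fish are not stated there. The labels call the 3 arrays of a group biological replicates.

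Neurons of the brainstem and diencephalon send axons down the spinal cord and drive swimming. In adult zebrafish, unlike adult mammals, many of them regrow an axon through a spinal lesion while others do not. After axotomy a neuron commonly switches on transcription factors such as Atf3, Jun, Stat3 and Sox11, followed by growth-associated proteins such as Gap43, and may lower genes of synaptic transmission.

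Each deposited value is a log2 level relative to that probe set's own median over the 9 arrays. Values therefore show differences between arrays and not how strongly a gene was expressed, so the neuronal label could not be checked against the levels of defining markers. The 6 arrays differed along a first principal component that took 29.3% of their variance, on which unlesioned array 1 lay at -45.1 and nonregenerated array 1 at 32.9. Unlesioned array 3 lay at 4.3 and nonregenerated array 3 at -2.7, so the groups overlapped there.

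No gene passed the test. With limma fitted to all 9 arrays and Benjamini-Hochberg adjustment, 0 of 15502 probe sets (0%) had an adjusted p under 0.05, and the smallest was 0.369. At the level of genes, taking the mean of a gene's probe sets, 0 of 8793 passed (0%), and the smallest adjusted p was 0.195. Unadjusted p-values under 0.05 were found for 790 probe sets, or 5.1%, where 775 would be expected from a uniform distribution. The p-values as a whole were not uniform. Bins of 0.05 held 659 to 773 probe sets between 0.05 and 0.5, and 808 to 883 above 0.6. The nearness of 790 to 775 therefore does not show that no gene differs. The fit on the 6 arrays alone gave 1082 probe sets under 0.05, and the other scalings and weights are given with the alternatives. The 3 arrays of a group did not overlap the 3 of the other in 1728 probe sets, or 11.1%, where 10% would be expected if the 6 arrays fell in random order. In the same fit, nonregenerated against regenerated neurons gave 380 called probe sets (2.45%) and 260 called genes (2.96%). Both comparisons use the same 3 nonregenerated arrays, so they are not independent for any gene named below.

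**Figure D1:**
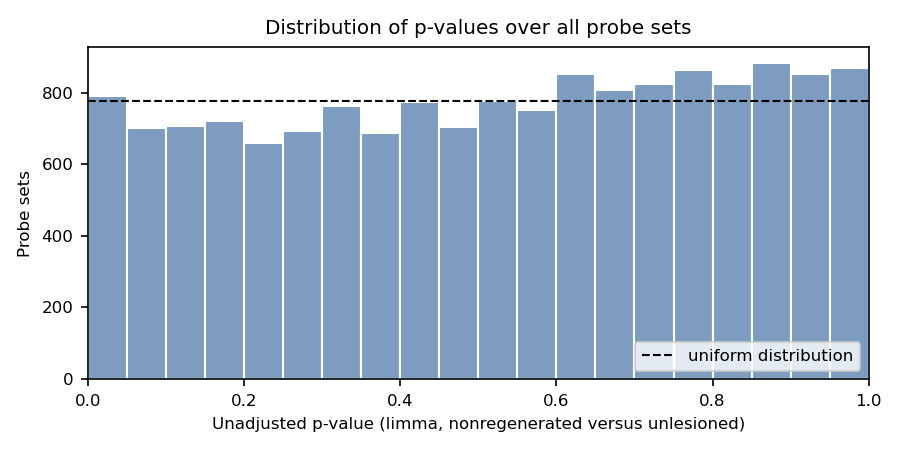
Histogram of unadjusted limma p-values of all 15502 probe sets for nonregenerated against unlesioned neurons, in bins of 0.05. The lowest bin holds 790 probe sets, and the dashed line of a uniform distribution gives 775. The bins between 0.05 and 0.5 lie below that line, at 659 to 773, and those above 0.6 lie over it, at 808 to 883.

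The absence of calls bounds the differences unevenly. The median difference was -0.01 on the log2 scale, and the middle of the distribution ran from -0.18 to 0.17 between quartiles. The 95% interval lay wholly between -1 and 1, that is within a change of 2-fold either way, for 10008 probe sets (64.6%), and the median width to either side of the estimate was 0.62. For the remaining probe sets a difference of 2-fold was not excluded by the interval. At 12 probe sets the interval lay wholly beyond 1 in either direction. Each interval is that of a single probe set, not adjusted for the number of probe sets tested. Differences above 1 were measured at 105 probe sets and below -1 at 167, within a range of -3.72 to 2.27.

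Among probe sets with the smallest p in the upward direction, that of cebpd, a transcription factor induced by cytokines and stress, stood apart in every array. Its values were -0.52, 0.00 and -0.06 in the unlesioned arrays and 1.74, 1.47 and 1.31 in the nonregenerated arrays. The groups were separated by more than the spread within either, with a difference of 1.70 ± 0.24 (SE, n = 3 against 3) and an adjusted p of 0.435. A second cebpd probe set gave a difference of 0.47. In the first probe set the regenerated arrays, at 0.32, -0.37 and -0.16, lay near the unlesioned ones. The difference from them passed the test (1.57, adjusted p = 0.0109), on the same nonregenerated arrays by which the probe set was picked. In the second cebpd probe set the difference from regenerated arrays was 0.16 (adjusted p = 0.794), with overlapping groups.

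The other 7 of the 8 upward probe sets of smallest p also had no overlap between the groups, which a choice by small p favours. They include pycard, the adaptor protein ASC of the inflammasome, at -1.98, -1.57 and -0.81 in unlesioned and -0.31, 0.00 and 0.14 in nonregenerated arrays. The difference of pycard was 1.39 ± 0.29 (adjusted p = 0.638). For ets2, an ETS-family transcription factor, the 3 nonregenerated arrays were at 0.64, 0.65 and 0.61 and the unlesioned at -0.02, -0.06 and -0.11. That is a difference of 0.70 ± 0.16, with little spread in either group. The HMG-box factor sox21b, expressed in neural progenitors, had a difference of 0.70 ± 0.15 from unlesioned neurons. It was 1.16 above the regenerated arrays, which passed the test (adjusted p = 0.00653). That comparison uses the same nonregenerated arrays by which sox21b was picked, so it is not independent of the choice. The Sec14-family gene sec14l1 differed by 1.3, the aspartic protease gene napsa by 1.00, the LEM-domain gene lemd1 by 0.99 and the membrane protein gene bri3 by 0.89.

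The smallest p of all belonged to tbr1b, a T-box transcription factor of glutamatergic neurons of the forebrain pallium. The unlesioned arrays held 1.19, 0.97 and 1.45 and the nonregenerated arrays -0.30, -0.41 and -0.06. The difference was -1.46 ± 0.19, with an adjusted p of 0.369 over probe sets and 0.195 over genes. The regenerated arrays of tbr1b were at 0.00, -0.07 and 0.03, close to the nonregenerated ones. The pallium is not among the regions named above as sending axons down the cord. Whether pallial cells differed in number between the sorts was not tested.

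The 7 other downward probe sets of smallest p were those of hbba2, hbaa1, cyp19a1b, hsbp1a, slc4a1a, neurod1 and zufsp, again without overlap between the groups. Aromatase B, cyp19a1b, which makes oestradiol and in fish brain marks radial glia, was at 1.67, 1.13 and 1.21 in unlesioned and -0.82, 0.22 and -0.85 in nonregenerated arrays. Its difference was -1.82 ± 0.32 (adjusted p = 0.608), and the mean over its 3 probe sets was -1.87. Of these, 2 carry a suffix for probes shared between transcripts of the gene or with other genes. The heat shock factor binding protein gene hsbp1a differed by -1.27 ± 0.24 and the peptidase gene zufsp by -1.06 ± 0.22. A second zufsp probe set differed by -0.05, with overlapping groups. These 16 probe sets were picked for their small p on the same arrays, so their sizes and their lack of overlap are a description.

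**Figure D2:**
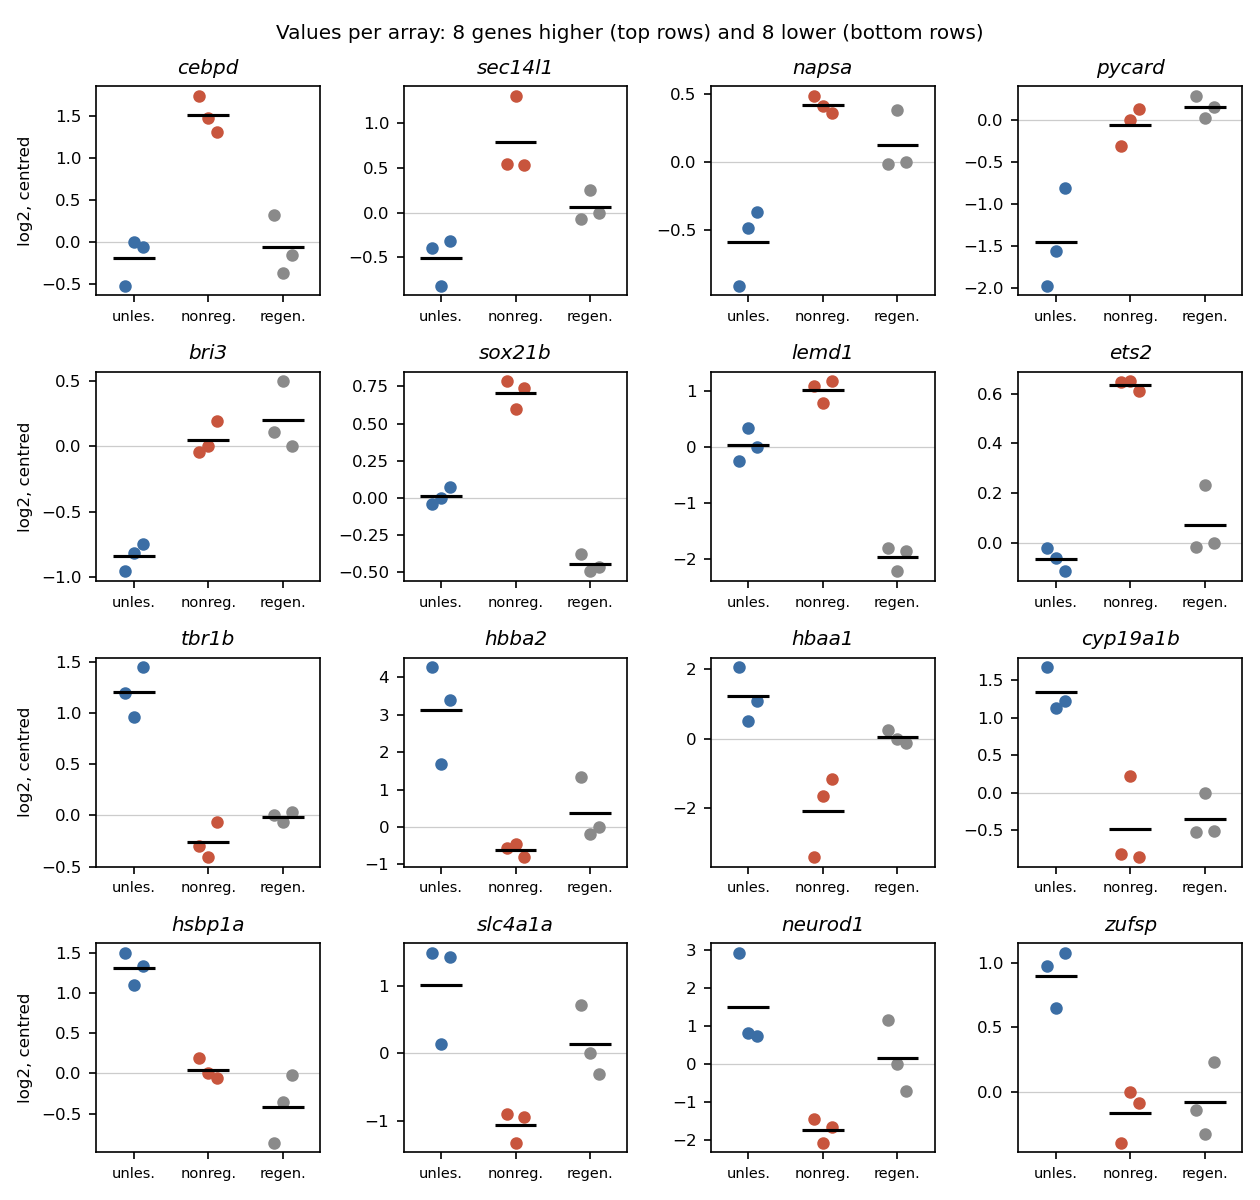
Deposited log2 values, relative to the probe set's median over the 9 arrays, of the 8 upward and 8 downward probe sets of smallest p. Points are single arrays of unlesioned (blue), nonregenerated (red) and regenerated (grey) neurons, lines are group means, and vertical scales differ. Unlesioned and nonregenerated points do not overlap in any panel, which the choice by small p favours. The probe sets of cebpd, sec14l1, sox21b, lemd1 and ets2 also stand above every regenerated array.

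Genes were then described by lists of pathways and cell types. Across all 8793 genes, 2.8% were higher and 2.59% lower in nonregenerated neurons at an unadjusted p under 0.05. Without overlap between the groups, 5.87% were higher and 5.93% lower. In the lists below, members counted as higher or lower are those at that unadjusted threshold, and 0 members of any list passed after adjustment. Members of a list vary together from array to array, so their counts are not independent of each other and carry no test here.

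Injury and growth genes came first. The median difference of 59 measured regeneration-associated genes was 0.03 against -0.01 over all genes. At an unadjusted p under 0.05, 8 (13.6%) were higher and 4 (6.78%) lower, against 2.8% and 2.59% of all genes. Without any 1 of the 6 arrays these counts were 5 to 7 higher and 2 to 7 lower. The upward members included cebpd and stat3, the transcription factor that carries interleukin-6 family signals. The lower members included stmn2a at -0.94 and l1cama at -1.31, both described further below. The values of stat3 were -0.56, -0.60 and -0.65 in unlesioned and 0.00, 0.49 and 0.30 in nonregenerated arrays, a difference of 0.86 ± 0.27 (adjusted p = 0.766). Its feedback inhibitor socs3a was at -1.20, -0.68 and -0.04 in unlesioned and 0.20, 0.00 and 0.48 in nonregenerated arrays, a difference of 0.86 ± 0.31, while the paralogue socs3b differed by 0.31 with an interval from -0.59 to 1.2. The Krüppel-like factor klf9, which in mammalian neurons restrains axon growth, was at -0.71, -0.79 and -0.80 in unlesioned arrays. In nonregenerated arrays klf9 was at 2.61, 1.91 and 0.00, and in regenerated arrays at 2.02, 1.60 and -0.04. Its difference from unlesioned neurons was 2.27 ± 0.67, with array 3 of each lesioned group far below arrays 1 and 2.

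Classical axotomy markers gave estimates in both directions. The stress factor atf3 was at -0.70, -0.15 and -1.26 in unlesioned and 0.42, 0.00 and -0.40 in nonregenerated arrays, which overlapped, with a difference of 0.71 ± 0.31 that was 0.43 without unlesioned array 3. The AP-1 subunit jun, averaged over its probe sets, was at -0.10, -0.28 and -0.25 against 0.18, 0.41 and 0.26, without overlap, a difference of 0.49 ± 0.18. Its probe sets differed by 0.41 and 0.58, and in the latter the groups overlapped. The growth cone protein gene gap43 was at 0.05, 0.67 and 0.69 in unlesioned and 0.43, -0.31 and 0.00 in nonregenerated arrays. The 2 groups of gap43 overlapped, and its interval ran from -1.07 to 0.21. For the transcription factors sox11a and sox11b the differences were -0.35 (interval -0.87 to 0.16) and -0.37 (interval -0.97 to 0.22). The groups did not overlap for the mean of the 3 sox11a probe sets, which differed by -0.72, -0.26 and -0.08, and they overlapped for sox11b. The factor klf6a differed by 0.33, with an interval from -0.35 to 1.00.

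**Figure D3:**
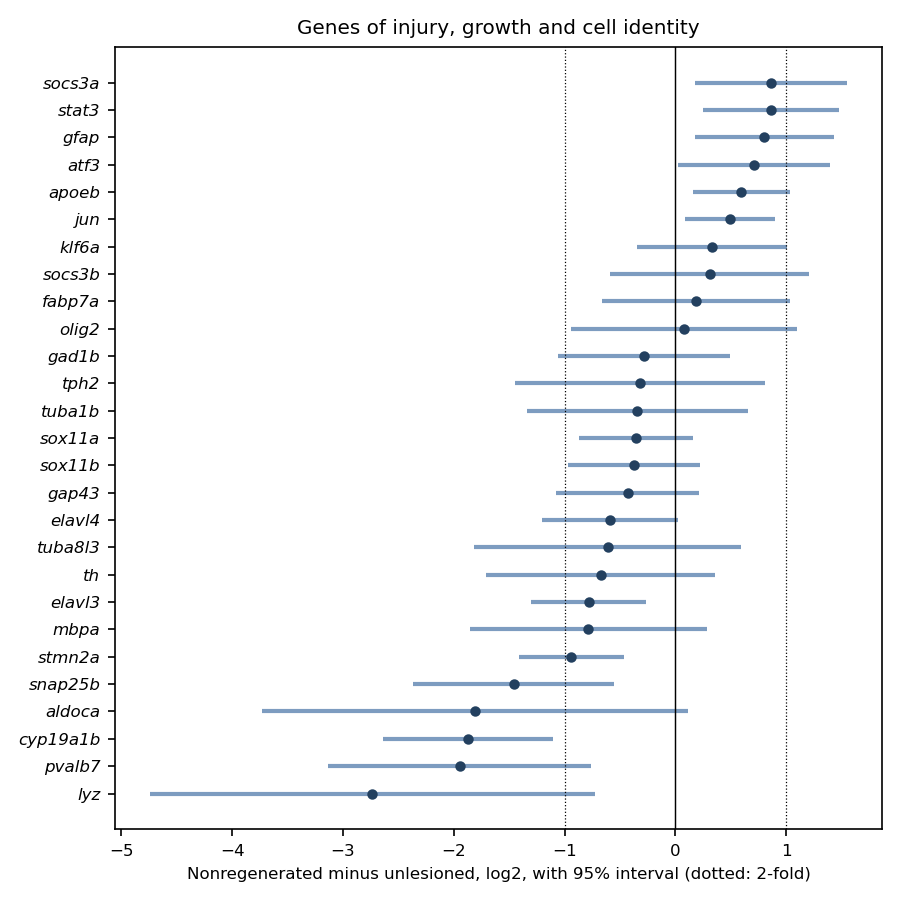
Difference of nonregenerated minus unlesioned neurons on the log2 scale for the 27 measured of 33 genes of injury, growth and cell identity, with points as estimates and lines as 95% intervals of the limma fit. The intervals of socs3a, stat3, gfap, atf3, apoeb and jun lie above 0 before adjustment for the number of genes, those of lyz, pvalb7, cyp19a1b, snap25b, stmn2a and elavl3 lie below 0, and that of gap43 spans 0.

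Immediate-early and stress genes lay mostly on the upper side. Of 43 measured, 38 had a point estimate above 0, and 9 (20.9%) were higher at an unadjusted p under 0.05 where 2.8% of all genes were. The member lower there was npas4a, a gene switched on by neuronal activity, at 1.40, 0.78 and 0.00 in unlesioned and 0.03, 0.08 and -0.64 in nonregenerated arrays, which overlapped. The median difference was 0.43, and the list shares 14 genes, cebpd among them, with the regeneration-associated genes. The count of 9 became 5 without nonregenerated array 3 and 6 or 7 without any other array. The mean over the list was -0.14, -0.26 and -0.19 in unlesioned, 0.21, 0.12 and 0.16 in nonregenerated and 0.11, 0.04 and -0.14 in regenerated arrays, so unlesioned and nonregenerated arrays did not overlap. Besides cebpd and jun, the phosphatase gene dusp2 differed by 0.71 ± 0.23 and the survival factor gene mcl1a by 0.56 ± 0.19. Enzymatic dissociation and sorting also induce genes of this kind, and their part in the difference was not tested. No pattern of that size was seen in 46 heat shock and chaperone genes, with 1 higher and 0 lower and a median of 0.11. Among 38 apoptosis and p53 pathway genes 2 were higher and 0 lower, with a median of 0.10. The cyclin G2 gene ccng2, a growth-restraining target of FoxO factors, was at -0.96, -0.41 and -0.61 in unlesioned and 0.08, 0.36 and 0.34 in nonregenerated arrays. This was a difference of 0.92 ± 0.22 (adjusted p = 0.582).

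Pan-neuronal markers lay on the lower side. Of 38 measured, 35 had a point estimate below 0, 14 (36.8%) were lower at an unadjusted p under 0.05 where 2.59% of all genes were, and 0 were higher. The median difference was -0.61, and 15 members (39.5%) had no overlap in the lower direction where 5.93% of all genes did. The list mean was 0.01, 0.17 and 0.13 in unlesioned arrays and -0.17, -0.53 and -0.72 in nonregenerated arrays, while the regenerated arrays were at 0.10, 0.42 and 0.43. In these bulk samples, fewer cells of a type and less RNA per cell cannot be told apart. Without any 1 of the 6 arrays, 12 to 17 of the 38 were lower at that threshold.

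The snap25b gene, for a SNARE protein of synaptic vesicle fusion, was at 0.70, 0.00 and -0.02 in unlesioned and -0.39, -1.16 and -2.14 in nonregenerated arrays. The difference was -1.46 ± 0.41 (adjusted p = 0.732), and nonregenerated array 3 was the lowest. The stathmin gene stmn2a, for a microtubule regulator of growing axons, was at 0.24, 0.20 and -0.11 against -0.49, -0.90 and -1.10, a difference of -0.94 ± 0.21 (adjusted p = 0.582). The G protein subunit gene gng3 was at -0.03, 0.03 and 0.00 against -0.55, -0.51 and -0.74, a difference of -0.60 ± 0.16 with a narrow spread in the unlesioned group. Its probe sets differed by -0.34 (interval -0.71 to 0.04) and -0.86 (interval -1.26 to -0.46). The synuclein gene sncb differed by -1.0 ± 0.22, and the RNA-binding protein genes elavl3 and elavl4 by -0.78 ± 0.23 and -0.59 ± 0.28. Against regenerated neurons, which share the same 3 nonregenerated arrays, the differences of gng3 (-1.36), snap25b (-2.06) and stmn2a (-0.95) passed the test, with adjusted p of 0.00351, 0.0309 and 0.0462.

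Among 34 genes of synaptic vesicles and release, 7 (20.6%) were lower, where 2.59% of all genes were, and 0 higher, with a median of -0.15. The count of 7 became 3 without unlesioned array 1, 3 without nonregenerated array 2 and 2 without nonregenerated array 3. This list shares 6 genes with the pan-neuronal markers. The vesicle protein genes sv2bb and syn1 differed by -0.92 ± 0.32 and -0.73 ± 0.30, and snap25a by -0.85 ± 0.28, or -0.54 without nonregenerated array 3. For syn1 the groups overlapped. Lists of channels and transmitters were thinly measured. Of 14 voltage-gated channel genes 1 was higher and 2 lower, with the sodium channel gene scn8aa at -1.22 ± 0.37. Of 13 glutamatergic genes 1 was higher and 1 lower. Of 23 GABAergic and glycinergic markers 0 were higher and 2 lower, with gad1b, which makes GABA, at -0.28 (interval -1.06 to 0.49).

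Among 37 cholinergic, monoaminergic and peptide genes, 1 was higher and 3 lower, with a median of -0.17. Neuropeptide Y, npy, was at -0.36, -0.57 and 0.00 in unlesioned and 0.77, 0.06 and 0.68 in nonregenerated arrays, a difference of 0.82 ± 0.27. Chromogranin A, chga, a protein of dense-core vesicles, differed by -0.77 ± 0.26, and by -1.53 from regenerated neurons, which passed the test (adjusted p = 0.0169). The tyrosine hydroxylase gene th, for the rate-limiting enzyme of dopamine synthesis, differed by -0.68 (interval -1.71 to 0.36) and tph2, its counterpart for serotonin, by -0.32 (interval -1.45 to 0.81).

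Markers of cerebellar granule cells also lay lower, and transcription factors of neuron subtypes slightly so. Of 111 subtype factors, 12 (10.8%) were lower, where 2.59% of all genes were, and 0 higher. Their median of -0.10 lay between the quartiles of all genes, -0.18 and 0.18. Without any 1 of the 6 arrays, 8 to 14 of them were lower. Of 23 granule cell markers, 23 had a point estimate at or below 0, with a median of -0.72. At an unadjusted p under 0.05, 5 (21.7%) were lower, against the same 2.59%. These lists share 15 genes. The granule cell list mean was 0.98, 0.41 and 0.08 in unlesioned and -0.16, -0.36 and -0.66 in nonregenerated arrays, with unlesioned array 1 the highest. Without any 1 of the 6 arrays, 3 to 9 of the 23 were lower at that threshold, with 3 left without unlesioned array 1 or nonregenerated array 3.

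The bHLH factor neurod1 was at 2.93, 0.82 and 0.75 in unlesioned and -1.43, -2.06 and -1.65 in nonregenerated arrays, a difference of -3.22 ± 0.62 (adjusted p = 0.62 over probe sets). Its relative neurod2 was at 2.76, 0.37 and 0.05 against -1.63, -1.75 and -1.37, a difference of -2.65 ± 0.61. The zinc finger factor zic1 was at 1.58, 1.02 and 0.44 against -0.15, 0.00 and -1.21, a difference of -1.47 ± 0.37. In all 3 genes unlesioned array 1 was highest, and the groups did not overlap. Granule cells do not project to the spinal cord, and their markers are shared with other neurons. Whether such cells differed in number between the sorts was not tested.

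Purkinje cell markers, of which 20 were measured, had 3 (15%) lower, where 2.59% of all genes were, and 0 higher. Their median was -0.31. Whether Purkinje cells differed in number between the sorts was not tested. Parvalbumin 7, pvalb7, was at -0.57, 1.78 and 0.00 in unlesioned, -0.94, -1.79 and -1.90 in nonregenerated and 4.39, 4.64 and 4.2 in regenerated arrays. Its difference from unlesioned neurons was -1.95 ± 0.53 (adjusted p = 0.732), and -1.26 without unlesioned array 2. Zebrin II, aldoca, was at 0.00, 3.46 and -0.33 in unlesioned and -0.12, -0.60 and -1.58 in nonregenerated arrays, which overlapped, and the difference of -1.81 ± 0.86 shrank to -0.60 without unlesioned array 2. Both were far below the regenerated arrays, by -5.96 for pvalb7 and -6.33 for aldoca. The transcription factor bhlhe22 was at 1.88, 0.26 and 1.92 in unlesioned, -0.04, 0.14 and -0.15 in nonregenerated and -0.06, 0.00 and -0.10 in regenerated arrays. Its pattern was unlike that of pvalb7 and aldoca. Unlesioned array 2 was the lowest unlesioned array for bhlhe22 and the highest for the other genes. The difference of bhlhe22 from unlesioned neurons was -1.37 ± 0.39 (adjusted p = 0.732). Without unlesioned array 2, the unlesioned array nearest the nonregenerated ones, bhlhe22 differed by -1.92. The adjusted p of 0.0227 there was the lowest of 19 alternatives, and leaving out the nearest array favours a small p.

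**Figure D4:**
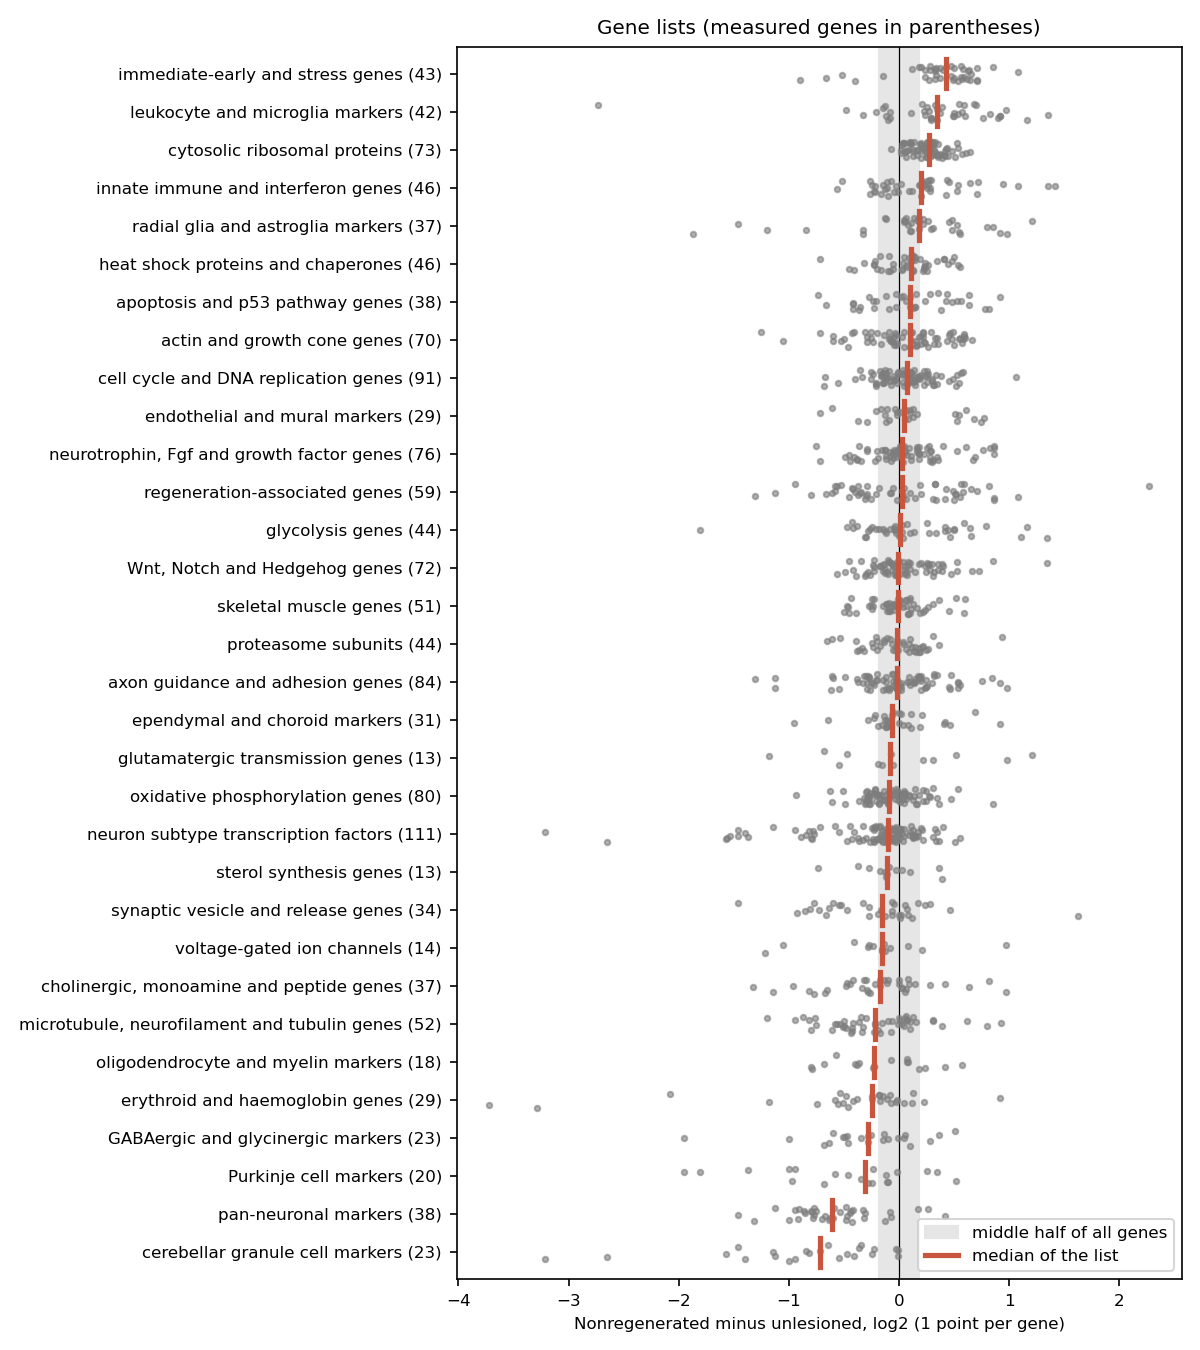
Difference of nonregenerated minus unlesioned neurons for each measured member of 32 gene lists (points, log2 scale), with list medians (red bars), the number of genes in parentheses and the interquartile range of all genes (grey band). Cerebellar granule cell and pan-neuronal markers lie lowest, at medians of -0.72 and -0.61, and immediate-early and leukocyte genes highest, at 0.43 and 0.35.

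Genes of the cytoskeleton and of axon guidance came next. Of 52 microtubule, neurofilament and tubulin genes 2 were higher and 3 lower, with 34 below 0 and a median of -0.22. Without overlap between the groups, 10 of them (19.2%) were lower, where 5.93% of all genes were, and 1 (1.92%) was higher. Of 70 actin and growth cone genes 3 were higher and 5 lower, with a median of 0.10. The thymosin gene tmsb, for an actin-sequestering protein, was at 0.84, 0.27 and 0.85 against -0.32, 0.00 and -0.89, a difference of -1.06 ± 0.30. Of 84 guidance and adhesion genes 3 were higher and 4 lower. The adhesion molecule l1cama, which in zebrafish supports regrowth of spinal axons, was at 0.00, 0.89 and 0.58 against -1.0, -0.86 and -0.61, a difference of -1.31 ± 0.45 (adjusted p = 0.802). The Slit receptor gene robo3 differed by -1.12 ± 0.36, with overlapping groups.

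Of 76 genes of neurotrophins, Fgf and other growth factors, 2 were higher and 2 lower. Brain-derived neurotrophic factor, bdnf, was at 0.53, 0.10 and 0.00 in unlesioned and -0.58, -0.87 and -0.18 in nonregenerated arrays, a difference of -0.75 ± 0.25. Of 72 Wnt, Notch and Hedgehog genes 2 were higher and 0 lower, with a median of -0.01. The Notch effector her6 was at -0.34, 0.00 and 0.33 against 0.29, 1.2 and 1.07. These overlapped, with a difference of 0.86 ± 0.27, and the difference of 1.92 from regenerated neurons passed the test (adjusted p = 0.00695).

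Glial markers were mixed. Of 37 radial glia and astroglia markers, 29 had a point estimate above 0, and the median was 0.18. At the unadjusted threshold 3 (8.11%) were higher and 3 (8.11%) lower, against 2.8% and 2.59% of all genes. Without unlesioned array 1, 19 were above 0 and 18 below, and the median was 0.01. The glutamate transporter gene slc1a3a was at -0.06, -0.63 and -0.99 in unlesioned and 0.05, 1.23 and 0.66 in nonregenerated arrays, a difference of 1.21 ± 0.32 (adjusted p = 0.732). The intermediate filament gene gfap was at -0.09, 0.18 and -0.35 against 0.27, 0.80 and 1.08, a difference of 0.80 ± 0.28. In the other direction lay cyp19a1b, given above, and vimentin, vim, at -1.19 ± 0.41. The lipid-binding protein gene fabp7a differed by 0.18 (interval -0.67 to 1.03). Of 18 oligodendrocyte and myelin markers 0 were higher and 1 lower, with a median of -0.23. The myelin protein gene mbpa differed by -0.79 (interval -1.85 to 0.28), and olig2, a factor of the oligodendrocyte lineage, by 0.08 (interval -0.95 to 1.1).

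Leukocyte and microglia markers lay mostly higher. Of 42 measured, 32 had a point estimate above 0, 9 (21.4%) were higher where 2.8% of all genes were, and the median was 0.35. In the higher direction 13 (31%) had no overlap, as did 5.87% of all genes. The list mean was -0.18, -0.26 and -0.18 in unlesioned, 0.01, 0.01 and 0.29 in nonregenerated and 0.12, 0.21 and 0.14 in regenerated arrays. Without any 1 of the 6 arrays, 4 to 10 were higher at that threshold, and 4 was the count without nonregenerated array 3. Apolipoprotein E, apoeb, abundant in microglia, was at -0.46, -0.77 and -0.34 against 0.00, 0.00 and 0.21, a difference of 0.60 ± 0.20 (adjusted p = 0.797). The chemokine receptor gene cxcr4b, which is also a guidance receptor of neurons, differed by 0.92 ± 0.29, and the galectin gene lgals9l1 by 0.97 ± 0.32, or 0.55 without unlesioned array 1.

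Lysozyme, lyz, a marker of neutrophils and macrophages, went the other way. It was at 4.27, -0.01 and 3.74 in unlesioned arrays and 0.00, -0.12 and -0.08 in nonregenerated arrays, so unlesioned array 2 lay with the nonregenerated ones. The difference was -2.73 ± 0.90 (adjusted p = 0.79). Without unlesioned array 2 it was -4.07. The adjusted p of 0.0017 there was the lowest of 19 alternatives, and leaving out the array that lay with the other group favours a small p.

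Of 46 innate immune and interferon genes, 7 (15.2%) were higher, where 2.8% of all genes were, and 0 lower, with a median of 0.20. This fell to 1 higher, with 1 lower and a median of 0.06, without nonregenerated array 3. The complement gene c1qc was at -1.02, -0.82 and -0.91 in unlesioned and 0.04, 0.03 and 1.26 in nonregenerated arrays, a difference of 1.36 ± 0.46. The interferon regulatory factor gene irf5 differed by 1.08 ± 0.35 and the Toll-like receptor gene tlr21 by 1.42 ± 0.52. For tlr21 the groups overlapped, with nonregenerated array 1 at -0.31 and the unlesioned arrays at -0.78, 0.00 and -0.26. Whether leukocytes in the sort took part in these differences was not tested.

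Genes of red blood cells gave the widest differences. Of 29 erythroid genes, 24 had a point estimate below 0, and the median was -0.24. At the unadjusted threshold 5 (17.2%) were lower, where 2.59% of all genes were, and 0 higher. The count of 5 became 3 without unlesioned array 1 or nonregenerated array 3. The β-globin gene hbba2 was at 4.27, 1.69 and 3.38 in unlesioned, -0.56, -0.45 and -0.81 in nonregenerated and 1.33, -0.19 and 0.00 in regenerated arrays. Its difference was -3.72 ± 0.61 (adjusted p = 0.608). The α-globin gene hbaa1 was at 2.06, 0.52 and 1.08 against -3.40, -1.64 and -1.16, a difference of -3.29 ± 0.56. The red cell anion exchanger gene slc4a1a differed by -2.07 ± 0.39 and the haem synthesis gene alas2 by -1.18 ± 0.41. Globin genes are near-identical copies, so these probe sets may read several of them. Unlesioned array 2 was the lowest unlesioned array in all 4 genes, and the same array lacked the high lyz value. The list mean was 0.64, 0.01 and 0.25 in unlesioned and -0.24, -0.24 and -0.18 in nonregenerated arrays.

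Among the other cell types, 29 endothelial and mural markers had 2 higher and 0 lower with a median of 0.05. Of 31 ependymal and choroid markers, 0 were higher and 1 lower. Of 51 skeletal muscle genes, 0 were higher and 0 lower, with a median of -0.01. The apelin receptor gene aplnra, an endothelial marker, differed by 0.74 ± 0.28 from unlesioned neurons, and by 3.95 from regenerated neurons, which passed the test (adjusted p = 0.00028).

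**Figure D5:**
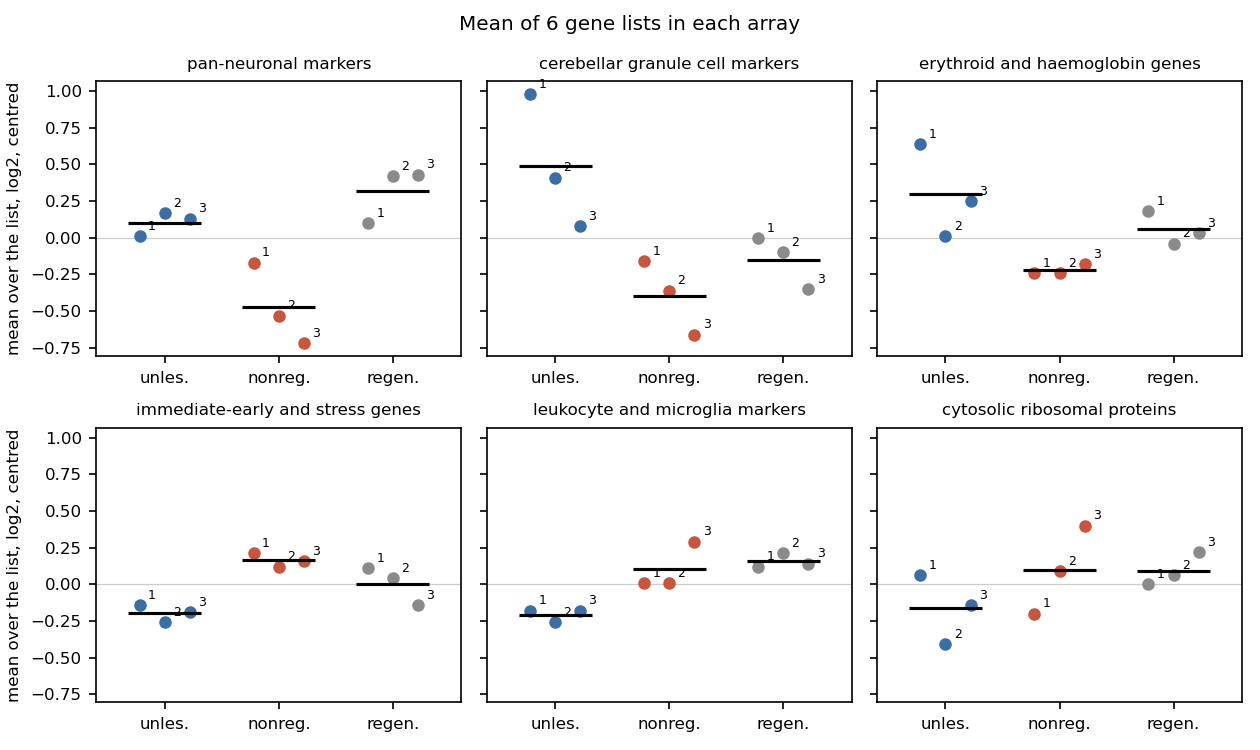
Mean log2 value, relative to the median over the 9 arrays, of 6 gene lists in each array. Numbers beside points are replicate numbers and lines are group means. Unlesioned and nonregenerated arrays do not overlap for pan-neuronal, granule cell, erythroid, immediate-early and leukocyte genes, and they overlap for ribosomal proteins.

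In metabolism, 5 of 44 glycolysis genes (11.4%) were higher, where 2.8% of all genes were, and 0 lower, with a median of 0.01. Without any 1 of the 6 arrays, 3 to 7 were higher. Those named are regulators of pyruvate and fructose-bisphosphate use rather than the enzymes of the pathway itself, apart from the enolase gene eno1b at 0.79 ± 0.32, which was 0.41 without unlesioned array 1. The pyruvate dehydrogenase kinase gene pdk4, whose product inhibits pyruvate dehydrogenase, was at 0.43, -0.32 and 0.00 in unlesioned and 2.24, 1.46 and 0.45 in nonregenerated arrays. This was a difference of 1.35 ± 0.40 (adjusted p = 0.732), with the closest arrays of the 2 groups almost touching. The phosphofructokinase regulator gene pfkfb4b was at -0.61, -0.14 and -0.04 against 1.19, 0.88 and 0.46, a difference of 1.11 ± 0.25, and its relative pfkfb3 differed by 0.65 ± 0.25. Of 80 genes of oxidative phosphorylation 1 was higher and 4 lower, with a median of -0.09. The member of smallest p, the cytochrome oxidase assembly gene cox11, was at 0.00, -0.21 and -0.07 in unlesioned and 0.43, 1.39 and 0.46 in nonregenerated arrays, without overlap, a difference of 0.85 ± 0.28. The cytochrome oxidase subunit gene cox4i1l differed by -0.51 ± 0.20, and ndufa4b by -0.94 ± 0.36, the latter with overlapping groups. Of 13 sterol synthesis genes 0 were higher and 0 lower.

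Of 73 cytosolic ribosomal proteins 72 had a point estimate above 0, but 1 was higher at an unadjusted p under 0.05 and 0 lower. The median of 0.27 fell to 0.09 without nonregenerated array 3. The list mean was 0.06, -0.41 and -0.14 in unlesioned and -0.20, 0.09 and 0.40 in nonregenerated arrays, so the groups overlapped. Of 44 proteasome subunits 0 were higher and 1 lower. Of 91 cell cycle and DNA replication genes 2 were higher and 1 lower, with a median of 0.07. The replication helicase gene mcm5 was at -0.28, 0.29 and -0.53 against 0.76, 1.44 and 0.47, a difference of 1.06 ± 0.35, and the cell cycle inhibitor gene cdkn1ca differed by -0.68 ± 0.21.

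Some genes of the fixed set separated nonregenerated from regenerated neurons while their interval against unlesioned neurons spanned 0. The factor olig2 was 3.35 above the regenerated arrays (adjusted p = 0.00555). The tubulin genes tuba8l3 and tuba1b were 3.12 and 2.09 above them (adjusted p = 0.0168 and 0.04), and gad1b differed from them by -1.61 (adjusted p = 0.0422). Against unlesioned neurons, tuba8l3 differed by -0.61 (interval -1.82 to 0.59), without overlap between the groups, and tuba1b by -0.34 (interval -1.34 to 0.65). The interval of each of these 4 genes reaches past a 2-fold difference in 1 direction, downward for tuba8l3, tuba1b and gad1b and upward for olig2. Zebrin II, aldoca, described above, was also of this kind. It differed by -6.33 from regenerated neurons (adjusted p = 0.00555), and its interval against unlesioned neurons ran from -3.73 to 0.11. Both comparisons use the same nonregenerated arrays. The intervals against unlesioned neurons also rest on a spread shared by all 3 groups, the regenerated arrays included. For tuba8l3 the standard deviation was 0.19 in unlesioned and 0.31 in nonregenerated arrays. Its regenerated arrays lay further apart, at -2.51, -2.54 and -4.83, which widened its interval against unlesioned neurons. In the fit on the 6 arrays alone, the adjusted p of tuba8l3 was 0.61, the lowest of 19 alternatives.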

How the data were processed

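Sorted brain neurons were profiled on 9 Affymetrix 3' IVT arrays for zebrafish, 3 per group. Biotin-labelled cDNA came from total RNA amplified by the Ovation Pico WTA kit, per the labels' protocols. The deposited log2 values are the authors' RMA output (submitters' processing notes; no version there). Each of the 15617 probe sets had a median of 0 over the 9 arrays, so values are relative and signal over background is unknown; the number of arrays limits the precision. No further normalization was applied.

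The 115 control probe sets were left out. Platform annotation gave 10795 probe sets 1 symbol, 135 several and 4572 none. Symbols of 10711 matched the RefSeq table (GRCz12tu, names only). No sequences or coordinates are given.

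Group means were fitted to all 9 arrays with limma 3.58.1 in R 4.3.3 (6 residual and 3.16 prior degrees of freedom). All p-values are two-sided and Benjamini-Hochberg adjusted over all probe sets or all genes, with a threshold of 0.05. For a gene, its probe sets were averaged. Errors are standard errors and intervals 95% intervals of the fit, with a spread shared by all 3 groups. An exact permutation test of 3 against 3 arrays cannot go below 0.1. The script was tested on simulated data.

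The named genes are the 8 probe sets of smallest p in each direction, since none was called, up to 4 genes of smallest p per list, and 27 measured genes of a fixed 33. The gene npas4a was singled out after its value was seen. The members, lists and fixed genes were chosen with earlier results of these data known. Samples were not treated as paired by replicate number in the main fit. Alternatives were other scalings, array weights, filters, a covariate, a replicate block and leaving out each array.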

Additional observations from a re-analysis of the deposited data

How the results depend on the processing

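The count of 0 called probe sets and genes held under every alternative run other than 2. Leaving out the probe sets with the lowest spread over the 9 arrays (11626 kept, prior degrees of freedom 10.9) gave 5 called probe sets, all lower. They were those of hbba2, hbaa1, neurod1 and a pair without a symbol, with adjusted p from 0.0109 to 0.0311. The spread used by that filter includes differences between the groups, so the filter favours a small adjusted p. Leaving out each array in turn gave 0 to 1 called probe sets and 0 to 3 called genes, the 3 being lyz, hbba2 and bhlhe22 without unlesioned replicate 2. Unadjusted p-values under 0.05 then numbered 570 to 892 probe sets and 341 to 540 genes. Quantile normalization gave 1215 probe sets and 746 genes at that threshold, and weights per array 1252 and 766; the cause was not tested. The fit on the 6 arrays alone gave 1082 and 641, and weights per group 1093 and 654. Same-numbered arrays of the 2 groups had correlations of -0.193, 0.054 and -0.168 between their deviations from the group means. Differently numbered arrays had -0.095 to 0.241. No pairing by number was seen, and 3 arrays a group are too few to exclude one. With the replicate block, 0 probe sets and 0 genes were called, and 796 probe sets and 473 genes had an unadjusted p under 0.05. Over 19 alternatives the list medians ran from -0.73 to -0.44 for pan-neuronal markers, -1.09 to -0.45 for granule cell markers, 0.37 to 0.54 for immediate-early genes, 0.27 to 0.45 for leukocyte markers and -0.39 to -0.10 for erythroid genes. The median of regeneration-associated genes changed sign in 7 of the 19. With 3 arrays a group and no absolute level, small differences and genes near background cannot be resolved.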
